A study of Drosophila melanogaster with 32 samples.

Results

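RNA of sorted somatic cells from early larval ovaries of Drosophila melanogaster was compared between knockdown of hippo (hpo RNAi) and knockdown of yorkie (yki RNAi). The libraries were chosen by their labels: somatic cells, early stage (72 hours after egg laying, the start of terminal filament formation), and 1 of these knockdowns. This gave 6 of the 32 labelled samples, 3 of hpo RNAi (replicates 1, 3 and 4) and 3 of yki RNAi (replicates 1, 2 and 3). Over all 18 somatic libraries, which include the later stages, 10672 genes had enough counts to be tested. Some of these had few or no counts early, and a fit of only the 6 early libraries tested 8905. Shares of all tested genes below refer to the 10672. The hpo RNAi cells carried the driver bab:GAL4 with the transgene UAS hpo RNAi, and the yki RNAi cells carried the same driver with UAS yki RNAi. UAS GFP was present in all 6 libraries, so that in larvae of the third instar the bab driver switched on a hairpin and GFP in the same cells. GFP-positive cells were sorted into Trizol and their poly-A RNA was read as 50 bp single ends. Each knockdown used 1 hairpin line, the gate kept every cell in which the driver was active rather than 1 cell type, and untreated cells were not analysed here. A difference between the groups is therefore the distance between the knockdowns, and which of them moved a gene cannot be told apart.

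The Hippo pathway is a kinase cascade that restrains tissue growth. Hippo, with its partner Salvador, activates the kinase Warts, which with Mats phosphorylates Yorkie and keeps it out of the nucleus. Unphosphorylated Yorkie enters the nucleus, binds DNA through Scalloped and raises transcription of growth and survival genes, and also of the upstream regulators expanded, kibra and crumbs, which feed back on the cascade. In the larval ovary the somatic cells build the terminal filaments, the stacks of cells on which the adult egg-producing units form, and the pathway is known for setting cell numbers there. Knockdown of hpo and knockdown of yki act on Yorkie in opposite directions.

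The label of the cells was checked against marker genes. The 10 somatic ovary markers summed to 2048 to 2467 counts per 1000000 (CPM) in hpo RNAi and to 1892 to 2517 CPM in yki RNAi, and the somatic transcription factor gene tj ranged from 294 to 442 CPM in hpo RNAi and from 304 to 390 CPM in yki RNAi, whereas en, a marker of formed terminal filaments, had no count in hpo RNAi and at most 1.39 CPM in yki RNAi. Of the 11 germ line markers, piwi, which ovarian somatic cells also transcribe, had 2112 to 2673 CPM in hpo RNAi and 1367 to 1846 CPM in yki RNAi. The other germ line markers summed to 24.6, 24.2 and 12.6 CPM in hpo RNAi and to 85.6, 28.7 and 23.5 CPM in yki RNAi. The 8 fat body markers summed to at most 9.84 CPM in any library, the 10 muscle markers to 171 to 186 CPM in hpo RNAi and 139 to 220 CPM in yki RNAi, and the 10 neuron markers to 20.6 to 34.1 CPM in hpo RNAi and 31.3 to 37.1 CPM in yki RNAi. The 8 hemocyte markers summed to 73.2 to 83.5 CPM in hpo RNAi and 61.6 to 101 CPM in yki RNAi, carried by srp and crq, with NimC1, eater, He and Nplp2 at 0 in all 6. The exons of crq overlap those of ex on the other strand, and without the counted strand their reads cannot be told apart. Library totals, in units of 1000000 counts, were 42.7, 22.3 and 33.7 in hpo RNAi and 48.1, 41.7 and 41.2 in yki RNAi. Correlations of log2 CPM were 0.898 to 0.912 between replicates of a group and 0.875 to 0.904 between the groups.

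In total 261 of the 10672 genes (2.45%) differed between the groups at a Benjamini-Hochberg adjusted p under 0.05 in edgeR's quasi-likelihood test, and such genes are called here. In hpo RNAi 111 genes (1.04%) were higher and 150 (1.41%) were lower than in yki RNAi. The falls were the larger: the median log2 fold change (hpo RNAi over yki RNAi throughout) was -1.75 for the genes called lower and 1.00 for those called higher, against 0.00 over all tested genes. A log2 change of at least 1 was reached by 128 of the lower and 55 of the higher genes. The libraries of the groups did not overlap for 243 of the 261 called genes, and for 14.2% of all tested genes. The calls were made from these same values, so the 243 are not separate support for them. Of the 261 calls, 103 were made again in all 6 fits that each left out 1 library, and the number called was 142 without hpo RNAi replicate 3, 400 without hpo RNAi replicate 4 and 171 without yki RNAi replicate 2. Rises outnumbered falls in 1 of these fits, that without yki RNAi replicate 1, with 206 higher and 161 lower. With DESeq2 in place of edgeR, 751 genes were called, 335 higher and 416 lower, and a fit of only the 6 early libraries called 76, 21 higher and 55 lower. Among the called genes described below, that fit did not call yki, dachs, Cad88C, side-VIII, nAChRalpha1, CG9164, Trim9, CG43693, Pka-C3, HisT, CG18507, Ser, Delta, aos, pnt, egr, pyr, Yp2, Yp3, scb, if, Col4a1, stan, neo, Gasp, zfh1, mirr, drm, abd-A, dap, ND-B17 or RpS5b, at adjusted p from 0.0515 for CG9164 to 0.393 for dachs.

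**Figure D1:**
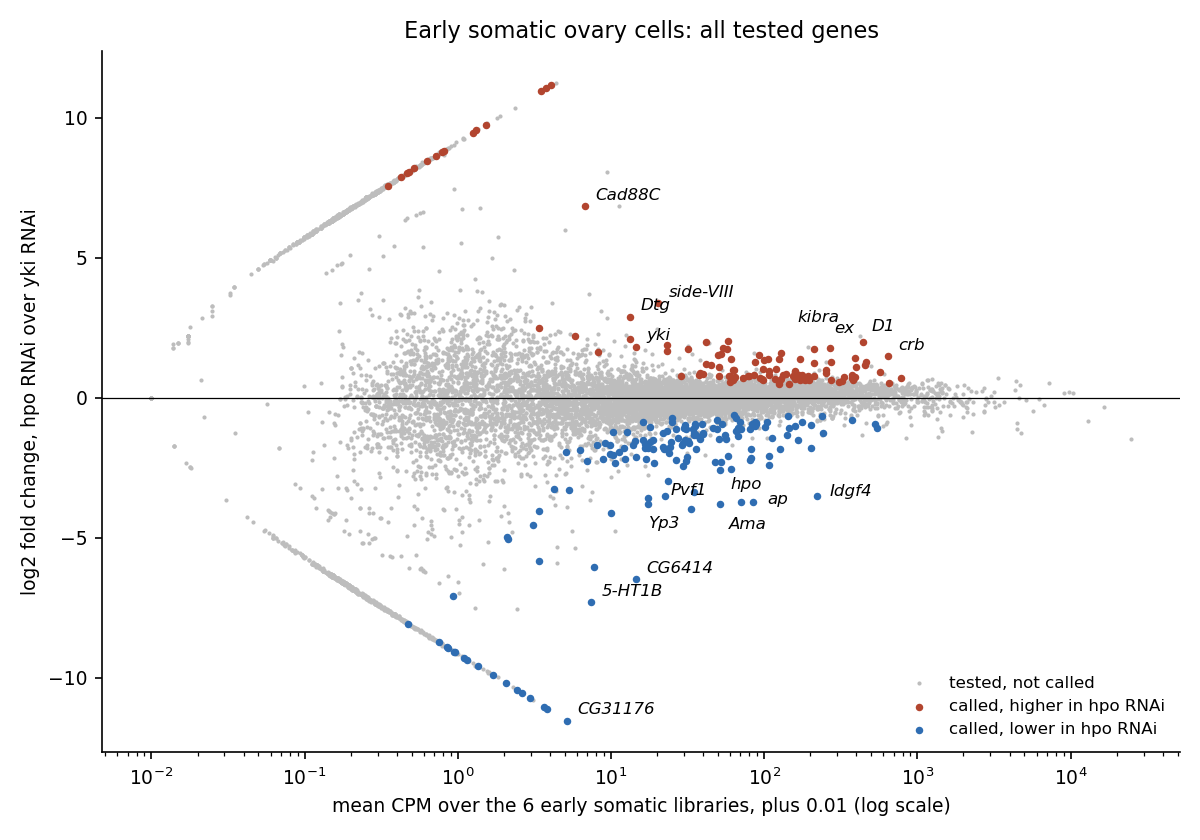
Each point is a tested gene, with its mean CPM over the 6 early somatic libraries on a log x axis and its log2 fold change, hpo RNAi over yki RNAi, on the y axis. Called genes are coloured, 111 higher in red and 150 lower in blue, and the slanting upper and lower edges hold genes with no count in 1 of the groups, whose fitted change depends on the prior count.

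The targeted genes followed the labels. The kinase gene hpo (chromosome arm 2R, 19493996 to 19496856, minus strand) had 18.5, 5.29 and 20.1 CPM in hpo RNAi, against 112, 79.4 and 72.8 CPM in yki RNAi. All hpo RNAi libraries lay below all yki RNAi libraries, and the log2 fold change was -2.58 (SE 0.35, adjusted p 3.24e-04). The coactivator gene yki (2R, 24065975 to 24068485, minus strand) had 16.5, 18.9 and 32.9 CPM in hpo RNAi, against 8.84, 5.47 and 5.05 CPM in yki RNAi. Its groups did not overlap either, with a log2 fold change of 1.82 (SE 0.32, adjusted p 0.00299), and the adjusted p was 0.101 in the fit of only the 6 early libraries. The exons of hpo overlap those of Rep on the opposite strand, as those of Ama, Nrt and Cad88C below overlap lncRNA:CR45593, mus302 and CG7886, and the strand counted is not given in the sources used here.

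Besides yki, 3 upstream regulators that Yorkie itself induces were called higher. The FERM protein gene ex (2L, 431227 to 448701, plus strand) had 465, 459 and 330.5 CPM in hpo RNAi, against 136, 103 and 121 CPM in yki RNAi. The WW-domain scaffold gene kibra (3R, 14697689 to 14724261, minus strand) had 413, 346 and 227 CPM in hpo RNAi, against 91.9, 102 and 93.3 CPM in yki RNAi. The apical polarity gene crb (3R, 24295078 to 24314541, plus strand) had 1030.0, 939 and 879 CPM in hpo RNAi, against 458, 287 and 275 CPM in yki RNAi. In all 3 genes the lowest hpo RNAi library stood above the highest yki RNAi library. The log2 fold changes were 1.79 for ex (SE 0.22, adjusted p 1.14e-04), 1.76 for kibra (SE 0.21, adjusted p 8.90e-05) and 1.47 for crb (SE 0.23, adjusted p 0.00121), and each was called in every fit that left out 1 library. The exons of ex overlap those of crq on the other strand.

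These 3 were the called rises among 14 tested upstream regulators (background 1.04%), whose median log2 fold change was 0.51 against 0.00 over all genes. The atypical myosin gene dachs, which acts below the cadherin Fat, was called lower at a low level: 0, 0.0896 and 0.296 CPM in hpo RNAi, against 7.03, 3.26 and 1.82 CPM in yki RNAi (log2 fold change -4.99 with SE 1.02, adjusted p 0.0105). Its call was lost without hpo RNAi replicate 1 (adjusted p 0.0604) and without hpo RNAi replicate 3 (0.0530). The other 10 upstream genes were not called, among them Mer, the partner of Expanded, with 64.2 ± 14 CPM in hpo RNAi and 58.4 ± 6.61 CPM in yki RNAi (SD, n = 3 each), and the Fat ligand ds, with 150.3 ± 53.1 CPM in hpo RNAi and 114 ± 26.4 CPM in yki RNAi.

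Within the core cassette of 17 tested genes, the targeted genes hpo (lower, background 1.41%) and yki (higher, background 1.04%) were the called members. The median was 0.08. The kinase gene wts had 114 ± 19.7 CPM in hpo RNAi and 80.9 ± 5.70 CPM in yki RNAi (log2 fold change 0.48 with SE 0.23, adjusted p 0.266). The adaptor sav had 19.3 ± 6.01 CPM in hpo RNAi and 25.8 ± 6.73 CPM in yki RNAi, with an adjusted p of 0.43. The DNA-binding partner of Yorkie, sd, had 348 ± 17.0 CPM in hpo RNAi and 345 ± 34.6 CPM in yki RNAi, with a log2 fold change of -0.00 and an SE of 0.14.

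Of 17 tested genes published as Yorkie targets in other tissues, 3 were called higher (ex, kibra and crb, which are also upstream regulators) and 2 were called lower (background 1.04% and 1.41%), with a median of 0.14. The growth and survival targets were not called. The apoptosis inhibitor Diap1 had 108 ± 13.6 CPM in hpo RNAi and 91.4 ± 14.1 CPM in yki RNAi (log2 fold change 0.23 with SE 0.17, adjusted p 0.538). The cyclin gene CycE had 57.4 ± 11.2 CPM in hpo RNAi and 73.4 ± 20.1 CPM in yki RNAi (log2 fold change -0.36 with SE 0.17, adjusted p 0.256). The growth regulator Myc had 701 ± 163 CPM in hpo RNAi and 559.9 ± 61.2 CPM in yki RNAi (log2 fold change 0.31 with SE 0.24, adjusted p 0.540). The called falls were in the ligand genes vn and Ser, described with their pathways.

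**Figure D2:**
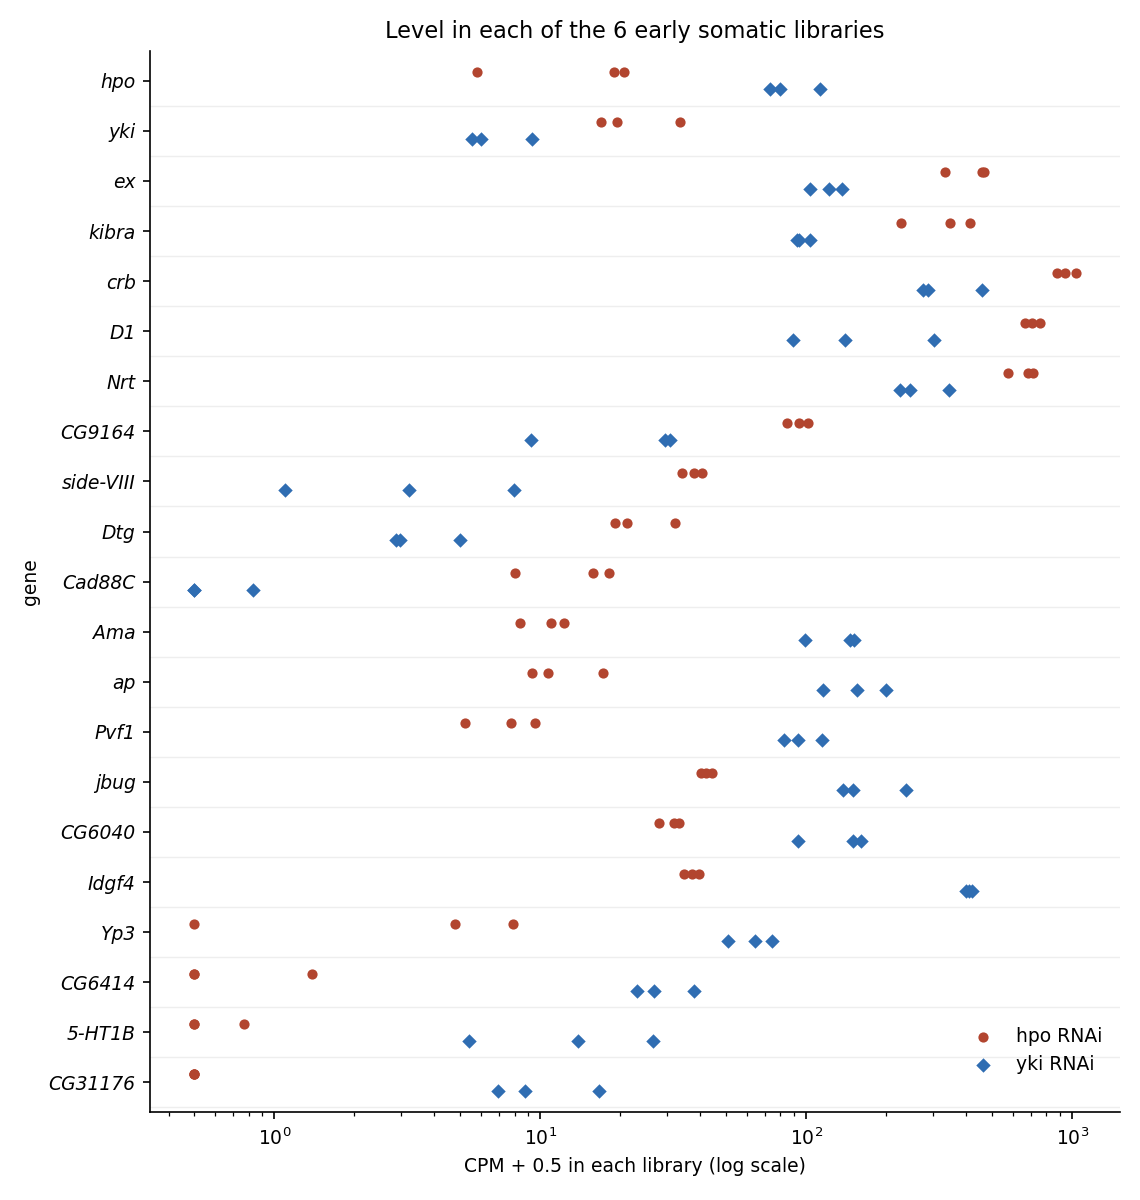
Level of 21 genes in each early somatic library, as CPM with a pseudocount of 0.5 on a log x axis, with hpo RNAi (red circles) above yki RNAi (blue diamonds) for each gene. No gene shown has overlapping groups: hpo RNAi is below yki RNAi for hpo and from Ama downwards, and above it from yki to Cad88C. For genes named by their change or p, the naming rule required this.

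The gene with the smallest p was Ama (3R, 6762593 to 6765261, plus strand), which encodes a secreted immunoglobulin-domain protein that binds the cell surface protein Neurotactin. It had 11.8, 10.4 and 7.91 CPM in hpo RNAi, against 146, 151 and 98.1 CPM in yki RNAi, a log2 fold change of -3.72 (SE 0.22, adjusted p 1.44e-08). The gene of its binding partner, Nrt, was called in the other direction, with 714, 682 and 572 CPM in hpo RNAi, against 345, 245 and 225 CPM in yki RNAi (log2 fold change 1.26 with SE 0.18, adjusted p 4.29e-04). Both genes were called in every fit that left out 1 library.

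The LIM-homeodomain gene ap (2R, 5706202 to 5727525, minus strand), known as the selector of dorsal identity in the wing, had 10.2, 8.83 and 16.7 CPM in hpo RNAi, against 199, 115 and 155 CPM in yki RNAi (log2 fold change -3.71 with SE 0.31, adjusted p 1.14e-06). The filamin-type actin crosslinker jbug had 39.7, 41.3 and 43.6 CPM in hpo RNAi, against 236, 137 and 149 CPM in yki RNAi (log2 fold change -2.07 with SE 0.24, adjusted p 8.90e-05). CG6040 had 31.3, 32.8 and 27.3 CPM in hpo RNAi, against 159, 92.9 and 149.8 CPM in yki RNAi (log2 fold change -2.15 with SE 0.22, adjusted p 1.86e-05). The spread among the hpo RNAi libraries was small in jbug and CG6040, where the yki RNAi libraries differed more among themselves.

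Several genes were nearly silent in hpo RNAi. CG31176 had no count in any hpo RNAi library, against 8.28, 16.1 and 6.46 CPM in yki RNAi, with an adjusted p of 4.52e-07. Setting each hpo RNAi library at 3 counts makes it at least 105-fold lower in hpo RNAi. The serotonin receptor gene 5-HT1B had 0, 0 and 0.267 CPM in hpo RNAi, against 13.3, 4.89 and 26.1 CPM in yki RNAi (adjusted p 0.0107). CG6414 had 0.890, 0 and 0 CPM in hpo RNAi, against 37.4, 22.6 and 26.3 CPM in yki RNAi (adjusted p 9.42e-04). In the yki RNAi libraries all 3 genes were detected in every replicate, which follows from naming only genes whose groups do not overlap. In total 17 genes called lower had no count in hpo RNAi and 15 genes called higher had none in yki RNAi. How many of all tested genes had no count in 1 of the groups was not determined, so these numbers stand without a background. For ms(3)76Ba and lncRNA:CR44457 the counts were 0 not only in the early hpo RNAi libraries but in all 15 hpo RNAi libraries of the count table, over both cell types and all stages analysed here.

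The other largest falls included the cAMP-dependent kinase gene Pka-C3 (log2 fold change -6.05 with SE 1.42, adjusted p 0.0308), HisT (-4.10, SE 0.96, adjusted p 0.0259) and CG18507 (-3.79, SE 0.99, adjusted p 0.0478). Their groups did not overlap, which the rule for naming these genes required, and each call was lost in several fits that left out 1 library. For Pka-C3 the adjusted p was 0.0618 without hpo RNAi replicate 1, 0.0827 without hpo RNAi replicate 3, 0.0738 without yki RNAi replicate 1 and 0.0572 without yki RNAi replicate 2. For HisT it was 0.0610 without hpo RNAi replicate 3, 0.0541 without hpo RNAi replicate 4 and 0.0583 without yki RNAi replicate 3. For CG18507 it was 0.119 without hpo RNAi replicate 3 and above the threshold without every other library except hpo RNAi replicate 4.

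Large rises were called for Cad88C, side-VIII and nAChRalpha1. The cadherin-family gene Cad88C had 17.6, 15.2 and 7.56 CPM in hpo RNAi, against 0.333, 0 and 0 CPM in yki RNAi (adjusted p 0.00216). The fitted log2 fold change was 6.85 (SE 1.14), and it was 11.86 without yki RNAi replicate 1, where the group has no count left. The Sidestep-family gene side-VIII, whose relatives are receptors for Beat proteins, had 33.6, 37.3 and 40.0 CPM in hpo RNAi, against 7.45, 0.599 and 2.72 CPM in yki RNAi (log2 fold change 3.37 with SE 0.87, adjusted p 0.0436). That call was lost without any library but yki RNAi replicate 1, with adjusted p of 0.0835, 0.102 and 0.0630 without hpo RNAi replicates 1, 3 and 4, and of 0.117 and 0.140 without yki RNAi replicates 2 and 3. The acetylcholine receptor subunit gene nAChRalpha1 had 26.0, 26.0 and 12.8 CPM in hpo RNAi, against 4.99, 4.77 and 5.0 CPM in yki RNAi (log2 fold change 2.11 with SE 0.37, adjusted p 0.00303).

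Among the other rises, D1, which encodes an AT-hook protein that binds satellite DNA, had 703, 757 and 665 CPM in hpo RNAi, against 302, 139.6 and 88.4 CPM in yki RNAi (log2 fold change 2.01 with SE 0.35, adjusted p 0.00296). The Dpp target gene Dtg had 31.5, 20.7 and 18.6 CPM in hpo RNAi, against 2.48, 4.51 and 2.36 CPM in yki RNAi (log2 fold change 2.90 with SE 0.47, adjusted p 0.00172). CG9164 had 93.7, 101 and 84.1 CPM in hpo RNAi, against 28.9, 8.73 and 30.2 CPM in yki RNAi (log2 fold change 2.02 with SE 0.32, adjusted p 0.00155). In D1 and CG9164 the yki RNAi libraries spread over a wider range than the hpo RNAi libraries. The ubiquitin ligase gene Trim9 (log2 fold change 1.88 with SE 0.35), rdo (1.79, SE 0.35), CG32485 (1.58, SE 0.24), CG43693 (1.43, SE 0.21) and CG11883 (1.26, SE 0.19) were higher too, at adjusted p from 7.91e-04 to 0.00694. The antisense RNA asRNA:CR44370 had 71.3, 85.2 and 44.3 CPM in hpo RNAi, against 16.9, 17.4 and 15.8 CPM in yki RNAi (log2 fold change 1.98 with SE 0.32), but it lies over Fs, the follistatin gene, on the opposite strand. Fs, named after its values were seen for this overlap, was called higher as well (log2 fold change 1.29 with SE 0.21, adjusted p 0.00164), and without the strand their reads cannot be told apart.

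Among genes of signalling ligands, Pvf1, vn, Ser and Delta were called lower in hpo RNAi, as was egr, whereas pyr was called higher. The PDGF and VEGF-related ligand gene Pvf1 (X, 18832682 to 18842901, plus strand) had 9.04, 4.70 and 7.23 CPM in hpo RNAi, against 114, 81.9 and 92.7 CPM in yki RNAi (log2 fold change -3.79 with SE 0.38, adjusted p 1.86e-05). The gene of the neuregulin-like EGFR ligand vn had 27.7, 33.1 and 34.7 CPM in hpo RNAi, against 93.9, 67.8 and 75.1 CPM in yki RNAi (log2 fold change -1.32 with SE 0.24, adjusted p 0.00394). Both were called in every fit that left out 1 library. The Notch ligand gene Ser had 9.68, 5.29 and 14 CPM in hpo RNAi, against 40.8, 55.2 and 18.7 CPM in yki RNAi (log2 fold change -1.98 with SE 0.40, adjusted p 0.00908). The other Notch ligand gene, Delta, had 20.8, 6.76 and 16.0 CPM in hpo RNAi, against 38.1, 69.7 and 25.4 CPM in yki RNAi (log2 fold change -1.62 with SE 0.36, adjusted p 0.0175). In both Notch ligands yki RNAi replicate 2 was the highest library and replicate 3 lay nearest to the hpo RNAi libraries. The call for Ser was lost without hpo RNAi replicate 3 (adjusted p 0.0553) and without yki RNAi replicate 2 (0.0552), and that for Delta without the same libraries (0.0722 and 0.118). In bulk RNA, fewer cells of a type and less RNA per cell cannot be told apart, here and in the results that follow.

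The EGFR list held 13 tested genes, of which none was called higher and 3 lower (background 1.04% and 1.41%). Besides vn these were aos, a secreted EGFR inhibitor that the pathway itself induces, and pnt, its ETS transcription factor. The inhibitor gene aos had 26.2, 19.1 and 17.1 CPM in hpo RNAi, against 34.4, 44.0 and 42.3 CPM in yki RNAi (log2 fold change -0.97 with SE 0.24, adjusted p 0.0340). The effector gene pnt had 38.9, 42.6 and 27.7 CPM in hpo RNAi, against 91.0, 64.4 and 52.5 CPM in yki RNAi (log2 fold change -0.94 with SE 0.23, adjusted p 0.0337). The receptor gene Egfr had 267 ± 24.5 CPM in hpo RNAi and 246 ± 37.9 CPM in yki RNAi and was not called. Leaving out 1 library cost aos its call in 4 fits (adjusted p 0.127 and 0.0809 without hpo RNAi replicates 3 and 4, 0.111 and 0.107 without yki RNAi replicates 2 and 3) and pnt its call in 5, with adjusted p of 0.0799, 0.0547 and 0.0859 without hpo RNAi replicates 1, 3 and 4 and of 0.10 and 0.0706 without yki RNAi replicates 1 and 2. The call for aos was also lost with the length trend removed (0.0641).

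Of the 14 tested Notch genes 2 were called, both of them ligands and both lower (background 1.41%). Of 10 tested JNK genes 1 was called (same background), the TNF ligand gene egr, with 22.0, 16.0 and 23.8 CPM in hpo RNAi, against 60.4, 42.0 and 45.6 CPM in yki RNAi (log2 fold change -1.26 with SE 0.31, adjusted p 0.0357). Of 10 tested FGF and Pvf genes 2 were called (background 2.45%): Pvf1 was lower and pyr, an FGF ligand gene, was higher, with 50.2, 58.9 and 38.9 CPM in hpo RNAi, against 23.1, 21.4 and 34.8 CPM in yki RNAi (log2 fold change 0.88 with SE 0.22, adjusted p 0.0394). Without hpo RNAi replicate 3 the adjusted p was 0.149 for egr and 0.168 for pyr, and for each the call was also lost without hpo RNAi replicate 1 (0.0899 and 0.0888), yki RNAi replicate 1 (0.0908 and 0.0971) and yki RNAi replicate 2 (0.0643 and 0.157), as it was for egr without yki RNAi replicate 3 (0.0857). With no filter on low counts the adjusted p of pyr was 0.0508. No member was called at this threshold among 14 Wnt, 13 Hedgehog, 13 BMP, 8 JAK-STAT, 14 insulin and TOR, 21 ecdysone or 10 apoptosis genes tested, and their medians lay between -0.28 for apoptosis and 0.35 for Wnt.

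**Figure D3:**
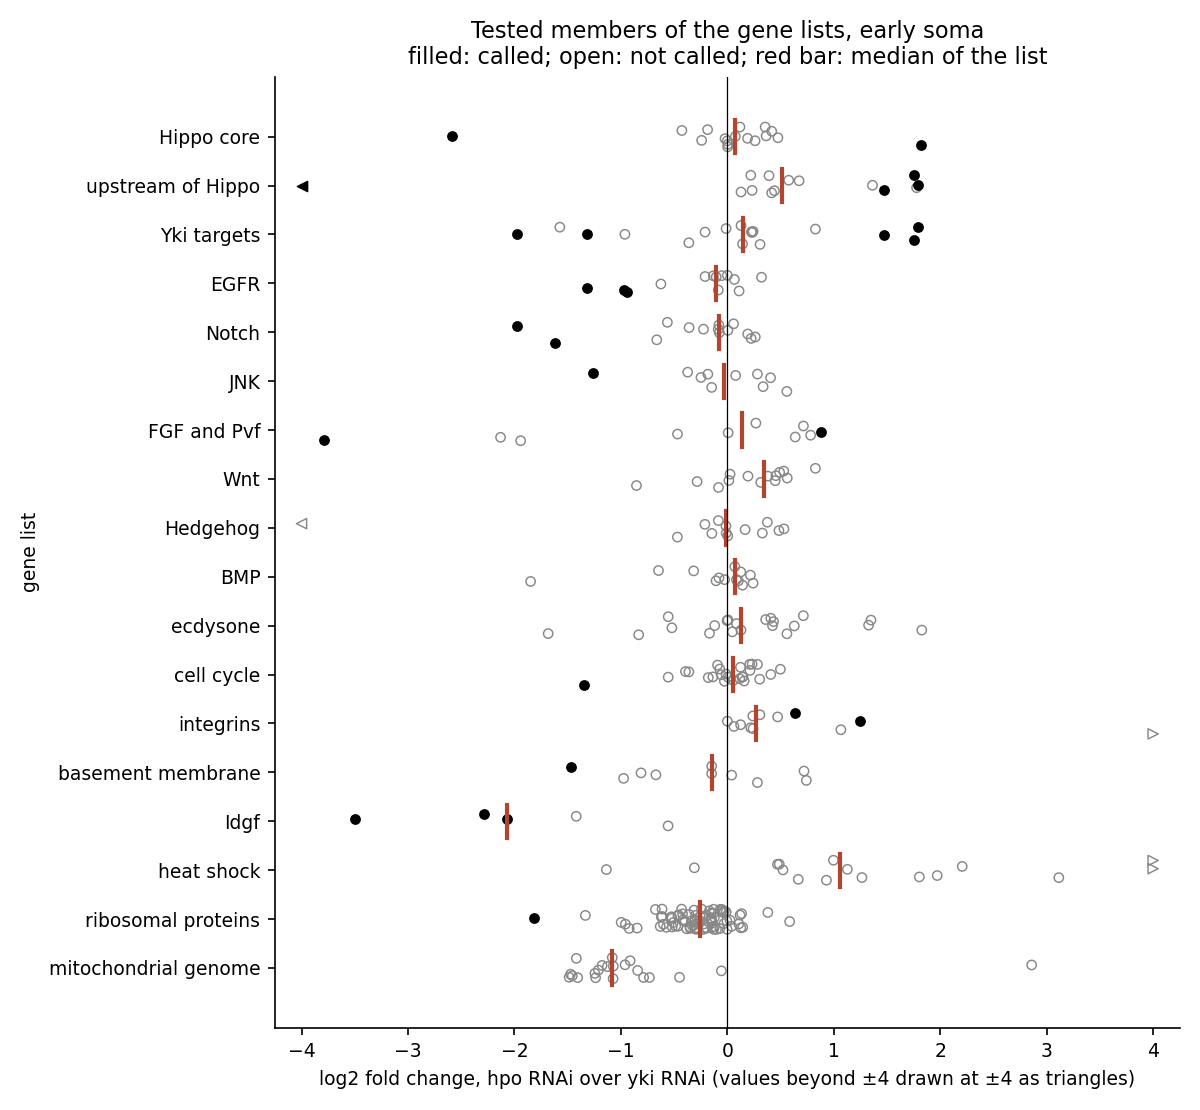
Log2 fold change, hpo RNAi over yki RNAi, on the x axis for every tested member of 18 gene lists. Filled symbols are called genes, open symbols are not called, red bars are list medians, and triangles stand for values beyond the axis limits. The called members of the EGFR, Notch and JNK lists all lie left of 0, those of the integrin list right of it.

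All 5 tested imaginal disc growth factor genes were lower in every hpo RNAi library than in every yki RNAi library. They encode secreted chitinase-like proteins, and 3 were called lower (background 1.41%). Over all tested genes the libraries of the groups did not overlap, in either direction, for 14.2%. Idgf4 had 36.6, 39.1 and 34.1 CPM in hpo RNAi, against 418, 398 and 408 CPM in yki RNAi (log2 fold change -3.49 with SE 0.62, adjusted p 0.00362). Idgf2 had a log2 fold change of -2.29 (SE 0.38, adjusted p 0.00223) and Idgf1 one of -2.07 (SE 0.41, adjusted p 0.00801), whereas Idgf3 (-1.42, SE 0.42, adjusted p 0.0828) and Idgf6 (-0.56, SE 0.18, adjusted p 0.111) were not called. Idgf1, Idgf2 and Idgf3 lie next to each other on 2L, within 16445278 to 16455194, and Idgf4 lies on X. The complement-like gene Tep4 had 167, 132 and 130.3 CPM in hpo RNAi, against 390.0, 294 and 328 CPM in yki RNAi (log2 fold change -1.25 with SE 0.17, adjusted p 3.97e-04).

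The yolk protein gene Yp3 had 7.43, 0 and 4.30 CPM in hpo RNAi, against 73.6, 63.4 and 50.2 CPM in yki RNAi (log2 fold change -3.98 with SE 0.85, adjusted p 0.0143). Its relative Yp2 had no count in hpo RNAi and 4.04, 1.22 and 2.79 CPM in yki RNAi (adjusted p 9.00e-04), which is at least 27.4-fold lower with each hpo RNAi library set at 3 counts, and Yp1 was at most 1.51 CPM in any library. Fitted on only the 6 early libraries, neither was called (adjusted p 0.186 for Yp2 and 0.104 for Yp3), and Yp3 was not called without hpo RNAi replicate 4 and yki RNAi replicate 2 (0.0705). Yolk protein genes are known from adult fat body and follicle cells. The fat body markers at 0 to 9.84 CPM in sum did not separate the groups. The part of fat body cells in the falls of Yp2 and Yp3 was not tested.

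All 12 tested integrin and integrin-linked genes had a positive log2 fold change, against 5348 of all 10672 tested genes. Their median was 0.27, and 2 alpha subunit genes were called higher (background 1.04%). The subunit gene scb had 286, 359 and 255 CPM in hpo RNAi, against 97.9, 102 and 174 CPM in yki RNAi (log2 fold change 1.24 with SE 0.23, adjusted p 0.00512). The subunit gene if had 249, 244 and 185 CPM in hpo RNAi, against 147, 137 and 147 CPM in yki RNAi (log2 fold change 0.64 with SE 0.13, adjusted p 0.0124), and its adjusted p was 0.0610, 0.0667 and 0.0610 without hpo RNAi replicate 1, hpo RNAi replicate 3 and yki RNAi replicate 2. Of 10 basement membrane genes 1 was called lower (background 1.41%), the collagen IV gene Col4a1. It had 20.2, 20.2 and 20.7 CPM in hpo RNAi, against 43.5, 92.6 and 31.2 CPM in yki RNAi (log2 fold change -1.47 with SE 0.35, adjusted p 0.0274). The highest of these libraries was yki RNAi replicate 2, and the adjusted p was 0.173 without it, 0.0888 without hpo RNAi replicate 1 and 0.102 without hpo RNAi replicate 3.

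Among 14 cadherin-superfamily genes, Cad88C was called higher (background 1.04%) and the planar polarity gene stan lower (background 1.41%). The level of stan was 15.4, 8.47 and 9.69 CPM in hpo RNAi, against 37.0, 21.6 and 53.3 CPM in yki RNAi. Its log2 fold change was -1.75 (SE 0.38, adjusted p 0.0160, and 0.0907 and 0.0916 without hpo RNAi replicate 3 and without yki RNAi replicate 3). Of 11 zona pellucida domain genes, whose products shape the apical matrix, 2 were called lower (background 1.41%). The member nyo had 15.2, 12.1 and 8.09 CPM in hpo RNAi, against 54.8, 56.2 and 41.4 CPM in yki RNAi (log2 fold change -2.12 with SE 0.26, adjusted p 1.23e-04). The member neo had no count in hpo RNAi and 1.14, 1.25 and 2.72 CPM in yki RNAi (adjusted p 4.29e-04), at least 17.4-fold lower on the same floor. The median of this list was -2.10 as fitted and -0.91 with the genes without counts in 1 group at their bound. Gasp, a cuticle and tracheal matrix gene, had 11.0, 6.90 and 9.43 CPM in hpo RNAi, against 26.8, 25.1 and 28.5 CPM in yki RNAi (log2 fold change -1.57 with SE 0.37, adjusted p 0.0289). It made up most of the summed tracheal and cuticle markers, 6.94 to 11.9 CPM in hpo RNAi and 27.7 to 31.8 CPM in yki RNAi, in which obst-A and trh were at most 0.270 CPM in any library. Without hpo RNAi replicates 1 and 3 the adjusted p of Gasp was 0.0517 and 0.110, and without yki RNAi replicates 2 and 3 it was 0.0668 and 0.0916.

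Among 16 tested transcription factor genes of the ovarian soma, 1 was called higher and 2 lower (background 1.04% and 1.41%). The zinc finger homeodomain gene zfh1, a somatic gonad factor, had 356, 402 and 346 CPM in hpo RNAi, against 255, 214 and 265 CPM in yki RNAi (log2 fold change 0.58 with SE 0.13, adjusted p 0.0164). The homeodomain gene mirr had 32.5, 39.8 and 37.0 CPM in hpo RNAi, against 66.7, 68.4 and 52.9 CPM in yki RNAi (log2 fold change -0.79 with SE 0.18, adjusted p 0.0212). For drm, an odd-skipped family gene, the log2 fold change was -1.09 (SE 0.26, adjusted p 0.0298). The Hox gene abd-A, active in the abdominal gonad, had 965, 1135 and 808 CPM in hpo RNAi, against 651, 502 and 599.8 CPM in yki RNAi (log2 fold change 0.72 with SE 0.16, adjusted p 0.0207). Each of these calls was lost without hpo RNAi replicate 3 (adjusted p 0.0907, 0.0547, 0.112 and 0.120 for zfh1, mirr, drm and abd-A) and without yki RNAi replicate 2 (0.0907, 0.0907, 0.157 and 0.103). Further losses came for mirr and abd-A without hpo RNAi replicate 1 (0.0991 and 0.0530), for drm without hpo RNAi replicate 4 (0.0686) and yki RNAi replicate 1 (0.0633), and for abd-A without yki RNAi replicate 3 (0.0538). With the length trend removed zfh1 and drm were not called (0.0568 and 0.0504), nor was zfh1 with no filter on low counts (0.0726).

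Of 25 tested cell cycle genes 1 was called, in the lower direction (background 1.41%). The cyclin-dependent kinase inhibitor gene dap had 23.4, 23.8 and 14.1 CPM in hpo RNAi, against 49.3, 39.6 and 64.4 CPM in yki RNAi (log2 fold change -1.35 with SE 0.28, adjusted p 0.0115, and 0.0693 without yki RNAi replicate 3). The median of the other cell cycle genes and dap together was 0.06.

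Some broad gene groups also differed in level between the libraries. Counts of the mitochondrial genome made up 3.42%, 3.27% and 4.15% of hpo RNAi libraries and 6.05%, 7.94% and 10.6% of yki RNAi libraries. The groups did not overlap, with means of 3.61% ± 0.471 and 8.20% ± 2.28 (SD, n = 3 each, two-sided exact permutation test, p = 0.1, the smallest p that 3 against 3 allows). Of 21 tested mitochondrial genes 20 had a negative log2 fold change, against 4980 of all 10672 tested genes. Their median was -1.08, and none was called. The nuclear genes of the respiratory chain had a median of -0.18 over 70 tested genes, and 1 was called lower (background 1.41%). This was ND-B17, a complex I subunit gene (log2 fold change -0.85 with SE 0.20, adjusted p 0.0296). Its call was lost without hpo RNAi replicates 1 and 3 (adjusted p 0.0705 and 0.133) and yki RNAi replicates 2 and 3 (0.0855 and 0.117).

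Heat shock genes summed to 11879, 17091 and 9896 CPM in hpo RNAi, against 7722, 7891 and 8660 CPM in yki RNAi, without overlap (two-sided exact permutation test, p = 0.1). The highest library was hpo RNAi replicate 3. None of the 16 tested was called, and their median was 1.06. Of 84 cytosolic ribosomal protein genes 75 had a negative log2 fold change, against 4980 of all 10672 tested genes. Their median was -0.26, and 1 was called lower (background 1.41%), the gene RpS5b, a paralog enriched in ovaries. RpS5b had 13.9, 4.93 and 10.4 CPM in hpo RNAi, against 54.1, 31.4 and 18.5 CPM in yki RNAi (log2 fold change -1.82 with SE 0.34, adjusted p 0.00531). Its paralog RpS5a had 1837 ± 551 CPM in hpo RNAi and 2028 ± 507 CPM in yki RNAi and was not called, and how reads shared by the paralogs were split is uncertain. The germ line markers other than piwi summed to 20.5 ± 6.82 CPM in hpo RNAi and 45.9 ± 34.4 CPM in yki RNAi (SD, n = 3 each, two-sided exact permutation test, p = 0.3). These groups overlap, yki RNAi replicate 1 being the highest, as it is for RpS5b, and the part of germ cells in the fall of RpS5b was not tested.

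The share of nuclear ribosomal RNA and the trend over gene length varied within both groups, with ranges that overlapped between the groups. Ribosomal RNA genes took 1.07%, 0.465% and 4.02% of counts in hpo RNAi, against 0.720%, 4.47% and 1.89% in yki RNAi (two-sided exact permutation test, p = 0.6). The slope of each library's log2 CPM deviation over log2 exon length was 0.0717, 0.0925 and -0.0833 in hpo RNAi, against 0.0858, -0.114 and -0.0524 in yki RNAi (two-sided exact permutation test, p = 0.6). The order of the slopes over the 6 libraries was the reverse of the order of the ribosomal RNA shares, so that hpo RNAi replicate 4 and yki RNAi replicate 2 had the highest shares and the lowest slopes.

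Longer genes had the higher log2 fold changes. With the tested genes split by exon length into 4 groups of equal size, the median was -0.14 in the shortest group, -0.02 and 0.06 in the middle groups and 0.14 in the longest, and it was -0.00, 0.02, 0.07 and 0.12 once each library's length trend was removed. The longest group held 64 of the 111 genes called higher and 49 of the 150 called lower, against 8 higher and 21 lower in the shortest. The median exon length was 3848 bases for genes called higher, 2530 for genes called lower and 1949 over all tested genes. With the length trend removed, 271 genes were called, 120 higher and 151 lower, and 234 of the 261 calls were among them. Without hpo RNAi replicate 4 and yki RNAi replicate 2, an alternative chosen after seeing the data, 244 were called, 163 of them shared with the 261, and ex, kibra, crb, Ama, ap and Pvf1 were called in both of these fits. That fit did not call HisT, side-VIII, Delta, aos, pnt, egr, pyr, Yp3, Col4a1, Gasp, zfh1, mirr, drm, abd-A or ND-B17, at adjusted p from 0.0565 for abd-A to 0.217 for drm. The part of read coverage along transcripts in these trends was not tested.

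**Figure D4:**
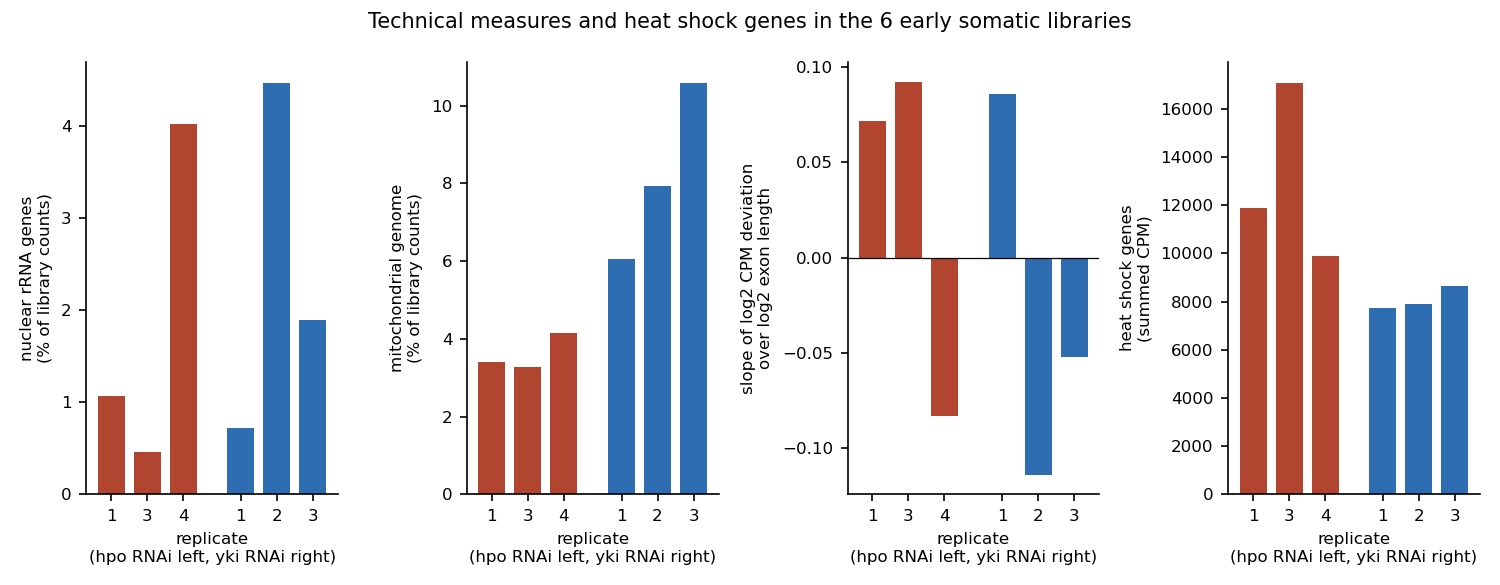
Bars from 0 give, for each early somatic library, the share of counts on nuclear ribosomal RNA genes, the share on the mitochondrial genome, the slope of log2 CPM deviation over log2 exon length, and the summed CPM of heat shock genes, with hpo RNAi (red) left of yki RNAi (blue). The mitochondrial share and the heat shock sum separate the groups, and the other measures do not.

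The early difference was set beside that at the mid stage (96 hours) and the late stage (120 hours), which have libraries of their own and at which 267 genes (2.5%) and 110 genes (1.03%) were called. Of the 111 genes called higher early, 87 had a positive log2 fold change at mid and 92 at late, against 48.2% and 52.2% of all tested genes, and 23 were called higher at mid (background 0.384%) and 15 at late (0.422%). Of the 150 genes called lower early, 136 were negative at mid and 127 at late, against 50.4% and 47.5% of all tested genes, and 75 were called lower at mid (2.12%) and 31 at late (0.609%). Calls in the opposite direction numbered 1 at mid and 2 at late. The fall of hpo had nearly the same size at each stage, with log2 fold changes of -2.58, -2.44 and -2.54 from early to late. That of ap was -3.71, -3.63 and -3.18, and ex had 1.79, 1.73 and 1.24.

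The difference between stages was tested as an interaction in the same fit. Between early and mid 14 genes (0.131%) had a different hpo RNAi over yki RNAi change, 9 of them (0.0843%) with the more positive change early and 5 (0.0469%) with the more negative. Between early and late 40 genes (0.375%) did, 20 in each direction (0.187% each). The numbers for early against mid were 54 without hpo RNAi replicate 4, 22 without yki RNAi replicate 1 and 8 without yki RNAi replicate 2. The change of Ama was -3.72 early and -0.94 late, while its level was 598 ± 79.8 CPM in hpo RNAi and 1157 ± 144 CPM in yki RNAi at late (SD, n = 3 each), and the difference of the changes was -2.78 (SE 0.29, adjusted p 4.34e-05). The zona pellucida domain gene nyo had a change of -2.12 early, 0.17 at mid and 1.67 at late, where it reached 235 ± 67.7 CPM in hpo RNAi and 74.2 ± 20.7 CPM in yki RNAi. Its early change differed from that at mid by -2.29 (SE 0.36, adjusted p 0.00840) and from that at late by -3.79 (SE 0.36, adjusted p 1.84e-05). The log2 fold change of crb was 1.47 early and -0.23 late (difference 1.71, SE 0.32, adjusted p 0.0178), whereas those of ex and kibra did not differ between early and late at this threshold (adjusted p 0.635 and 0.363). The fall of jbug shrank to -0.29 at late (difference -1.78, SE 0.33, adjusted p 0.0178), and Nrt, higher early, had a late change of -0.28 (difference 1.55, SE 0.25, adjusted p 0.00578).

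**Figure D5:**
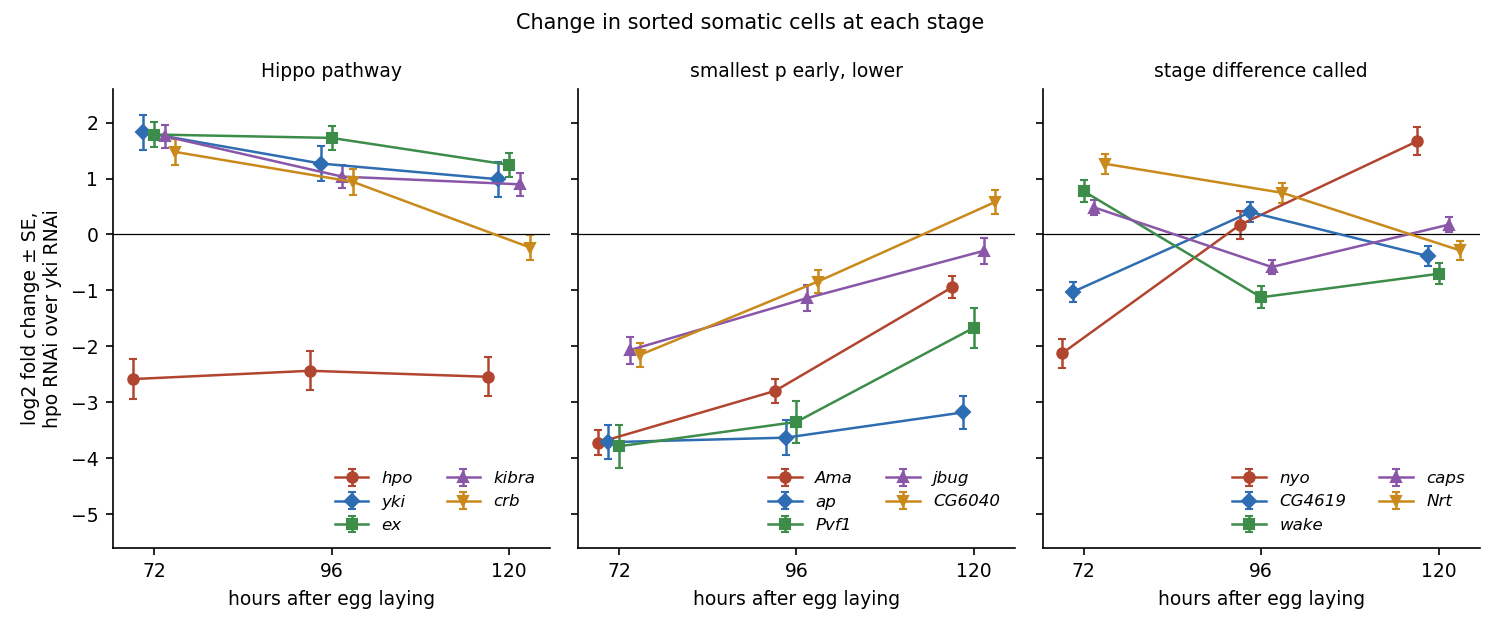
Log2 fold change with its SE, hpo RNAi over yki RNAi, on the y axis at 72, 96 and 120 hours after egg laying for 15 genes in 3 panels. The change of hpo stays near -2.5 and that of ap below -3, while Ama, jbug and CG6040 move towards 0 or past it with stage and nyo changes sign.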

How the data were processed

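Per the labels, poly-A RNA of sorted GFP-positive somatic cells was sequenced as 50 bp single ends. Per the submitters' processing notes the tools were bcl2fastq 2.2, STAR 2.7.6a, RSEM 1.3.3 and DESeq2 1.26.0; genome build and counted strand are not given in the sources used here. The deposited values are expected counts per gene that the authors made before deposit; 86.5% are whole (within 1e-06), and all were rounded here. The table has 30 columns that match a labelled sample and 18 that do not, which were not used.

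Differential expression was tested with edgeR 4.0.16 in R 4.3.3 (quasi-likelihood test, TMM scaling, filterByExpr with a minimum count of 10, Benjamini-Hochberg adjusted p under 0.05 over 10672 genes). The fitted log2 fold changes used edgeR's default prior count. A prior count of 2 was used only for the log2 CPM behind the correlations and the removal of the length trend. All 18 somatic libraries (6 groups of 3) share the filter and the spread estimate. SE is the absolute log2 fold change over the square root of F. CPM uses library totals without TMM. The pipeline was tested on simulated data. Exact permutation tests used scipy 1.17.1, and the DESeq2 alternative used version 1.42.0. Symbols, positions and exon lengths come from the Ensembl annotation of BDGP6.54. Of 16257 genes, 51 are not in it.

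Named genes were called genes whose libraries did not overlap and whose higher group averaged 10 CPM or more: the 10 largest changes and the 6 smallest p in each direction. To these were added hpo, yki, called list members and the 5 smallest interaction p per pair of stages. Members and lists were chosen with earlier results of these data known. Replicates are biological per the labels, and their number limits precision. Alternatives were other scaling, filters, tools, a replicate block, removal of the length trend and leaving out each library.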

Additional observations from a re-analysis of the deposited data

Results flagged for a closer look

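The 8 genes below have an hpo RNAi over yki RNAi change that differed between stages by the interaction term of edgeR's quasi-likelihood test, and they are given as values with no explanation. For wake, a gene of an ankyrin-repeat protein, the early change exceeded the mid change by 1.90 on the log2 scale (adjusted p 0.00725), and at mid it had 59.5 ± 6.77 CPM in hpo RNAi and 127 ± 17.0 CPM in yki RNAi (SD, n = 3 each). For the leucine-rich repeat transmembrane gene caps the difference was 1.06 (adjusted p 0.0207), with 82.0 ± 20.2 CPM in hpo RNAi and 120 ± 9.18 CPM in yki RNAi at mid. For CG4619 the difference was -1.43 (adjusted p 0.0207), with 51.1 ± 6.59 CPM in hpo RNAi and 38.5 ± 2.37 CPM in yki RNAi at mid. The call for CG4619 was lost without yki RNAi replicate 2 (adjusted p 0.0584), and that for caps without hpo RNAi replicate 1 (0.0522) and yki RNAi replicate 2 (0.0628). These are not all the losses. The replicate block left 3 genes called between early and mid, so not all of the 5 flagged for that pair kept their calls there.

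For nyo the early change was lower than the mid change by a difference of -2.29 and than the late change by -3.79. For CG31176 the differences were -9.08 against mid (adjusted p 4.47e-04) and -10.56 against late (adjusted p 1.84e-05). It has no count in early hpo RNAi, so that these sizes depend on the prior count, and at mid it had 5.40 ± 0.353 CPM in hpo RNAi and 28.9 ± 5.68 CPM in yki RNAi. For CG6357, which also has no count in early hpo RNAi, the difference against late was -9.38 (adjusted p 3.15e-04). For Ama the difference against late was -2.78 and for CG6040 it was -2.73 (adjusted p 8.21e-05), with 494 ± 39.5 CPM in hpo RNAi and 332 ± 46.4 CPM in yki RNAi at late for CG6040.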

How the results depend on the processing

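The early count of 261 genes was 751 with DESeq2 and 76 with only the 6 early libraries, and leaving out 1 library gave 142 to 400. The early against mid count of 14 was 210 with DESeq2, 25 with no filter on low counts, 9 with a stricter filter, 3 with the replicate block, 4 with the length trend removed and the replicate block, 6 without the 2 libraries of highest ribosomal RNA share (chosen after seeing the data) and 8 to 54 with 1 library left out. The early against late count of 40 was 176 with DESeq2 and 65 with no filter. The cause of these shifts was not tested. The log2 fold change of yki was 1.79 with only the 6 early libraries (adjusted p 0.101) and 1.48 with the length trend removed and the replicate block (0.0747), while hpo was called under every alternative run. No gene of the 261 changed sign under another tool, scaling, filter, block or length setting in which it was tested. Of 39 list medians 14 changed sign in at least 1 alternative, among them that of the core Hippo genes (0.08 as reported, -0.02 without the 2 libraries of highest ribosomal RNA share), of BMP genes (0.07, -0.04) and of Hedgehog genes (-0.01 as reported, 0.16 with the length trend removed and the replicate block). In all, 48 list medians in single alternatives moved by more than the spread between replicates and 613 did not. Calls were 206 higher and 161 lower without yki RNAi replicate 1, and 100 higher and 229 lower with no filter. Replicate numbers 1 and 3 are shared by the groups, but same-numbered libraries did not deviate together (r 0.0532 and -0.00386), so the numbers were not taken as pairs. With the replicate block 244 genes were called, 175 of them among the 261. With the length trend removed and the replicate block 174 were called, 135 of them among the 261. Calls lost with the block alone included those for side-VIII, HisT, Delta, aos, pnt, Col4a1 and ND-B17. Their adjusted p ran from 0.0648 for Delta to 0.135 for aos. With both settings the calls for if and abd-A were lost too (0.116 and 0.0850). With 3 libraries a group and 22.3 to 48.1 × 1000000 counts each, genes of few counts have wide errors.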

Other observations

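The genes in this section were chosen after their values were seen, and each was tested in the same edgeR fit over all genes. Called higher in hpo RNAi were sdt, the scaffold that binds Crumbs, by a log2 fold change of 0.99 (adjusted p 0.0105), the adherens junction gene cno by 0.80 (adjusted p 0.0104) and the scaffold gene Magi by 0.99 (adjusted p 0.0174). The piRNA pathway genes papi (0.77, adjusted p 0.00299) and shu (0.81, adjusted p 0.0164) were higher as well, whereas piwi had a log2 fold change of 0.46 and was not called. The paralogs scyl and chrb, inhibitors of TOR signalling, were called lower. Their log2 fold changes were -1.33 for scyl (adjusted p 4.29e-04) and -1.04 for chrb (adjusted p 0.0195). The calls for papi and scyl were made in every fit that left out 1 library. The others were lost in some: sdt without hpo RNAi replicate 1 (adjusted p 0.0606) and yki RNAi replicate 2 (0.0677), cno without yki RNAi replicates 2 and 3 (0.0677 and 0.0568), and shu without hpo RNAi replicate 4 (0.0509) and yki RNAi replicate 1 (0.0550). The call for chrb was lost without hpo RNAi replicates 1 and 4 (0.0768 and 0.0597) and yki RNAi replicates 1 and 3 (0.0554 and 0.0701). That for Magi was lost without hpo RNAi replicates 1 and 3 (0.0698 and 0.0667) and yki RNAi replicates 2 and 3 (0.0947 and 0.0837). With only the 6 early libraries scyl alone of these genes was called, and shu was not called with the length trend removed (0.0625).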
